A study of Homo sapiens with 6 samples.

Results

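Potassium channel genes were picked out of the deposited table of 61806 genes by their symbols, as every gene named KCN followed by further letters and a closing number. This gave 95 genes, and the 30 with a summed count of at least 60 over the 6 libraries are described here. Of the remaining 65 genes, 39 had counts that summed to less than that limit and 26 had no count in any library. The member just above the limit was KCNA7, with 60 counts, and the genes just below it were KCNE1 and KCNN4, with 54 and 44 counts.

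The cells were HFF, a wild-type culture of human foreskin fibroblasts held by a cell bank. All 6 libraries came from cells exposed to 40 mJ per cm2 of UVB, the band of sunlight absorbed directly by DNA, and cultured for 48 h afterwards. In the UVB + sauchinone group (3 libraries) the medium held 10 µM sauchinone, a lignan from plants, and in the UVB group (3 libraries) it held vehicle. Whether the compound was also given before irradiation is not stated for these libraries. Cells without UVB were not analysed here. The labels do not say whether the replicates were separate cultures, so the p-values below may rest on technical spread alone.

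Potassium channels let potassium ions cross the membrane through a selective pore and so set the resting voltage of the cell. Their pore-forming (alpha) subunits fall into voltage-gated channels, channels opened by calcium or sodium, inward rectifiers, and tandem-pore channels, whose subunits each carry a pair of pore loops. Auxiliary subunits bind to alpha subunits and change their gating or their transport to the surface. In fibroblasts, which do not fire action potentials, such channels are known for their part in membrane voltage, volume control, calcium entry and responses to stretch.

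Total counts ran from 21645464 to 23076388 with sauchinone and from 20984851 to 23075536 in UVB, so that 3 counts in a library equalled 0.130 to 0.143 CPM (CPM, a gene's count as a part of the TMM-adjusted library total). That floor covers counting error only. Spearman correlations over the tested genes were 0.991 to 0.994 between libraries of one group and 0.964 to 0.975 across groups. Fibroblast markers were expressed in every library, and the 9 markers examined summed to 1938 to 1992 FPKM with sauchinone and 2621 to 2838 FPKM in UVB (the deposited FPKM, which divides counts by exonic length and library total). KRT1 and KRT5 of keratinocytes, CDH5 and KDR of endothelium, DCT of melanocytes, S100B of Schwann cells and CD3E of T cells had no count in any library. Smooth muscle and pericyte markers were present and called lower with sauchinone in 5 of 6 tested members, with values given below. Of the 9 fibroblast markers 8 were called lower too, against 24.9% of all tested genes.

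The potassium channel genes of these fibroblasts were dominated by KCNK2 and KCNJ8, and sauchinone left them with less KCNK2. KCNK2, a stretch-activated tandem-pore channel, fell 5.65-fold, while KCNJ8, the pore of an ATP-sensitive inward rectifier, did not pass the test. KCNN2 and KCNMA1, which encode calcium-activated channels, and KCNQ5, a voltage-gated channel of the M-current family, fell as well. KCNK1, KCNJ15, KCNJ14 and KCNG1 rose between 3.01-fold and 3.46-fold. The plot of CPM by library shows these genes one by one.

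**Figure D1:**
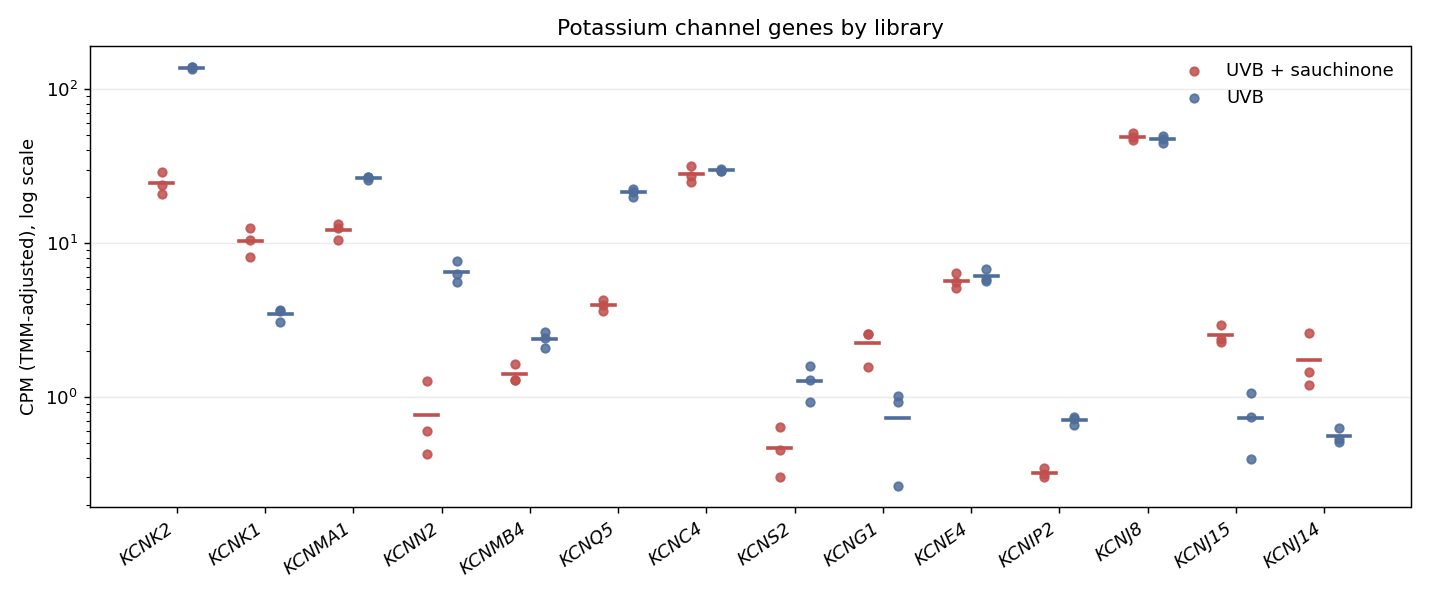
Each point is the CPM of a gene in 1 library (log scale), with UVB + sauchinone left of UVB and a bar at the mean of 3 libraries. The 14 genes are members that changed at least 2-fold and the member of each class with the highest mean FPKM. KCNK2 lay at 20.7 to 28.9 CPM with sauchinone and at 135 to 139 CPM in UVB, and KCNJ8 overlapped between the groups.

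Of the 30 genes 28 had enough counts to be tested, and 15 of them passed edgeR's quasi-likelihood test at an adjusted p under 0.05, 5 higher and 10 lower with sauchinone. This share (53.6%) was near the share of all 15704 tested genes called by the same rule (49.6%, with 24.7% higher and 24.9% lower). Changes of at least 2-fold were called in 11 members (39.3%, 4 higher and 7 lower), against 11.6% of all tested genes (4.25% higher and 7.31% lower). The libraries of the groups did not overlap in 17 of 28 members (60.7%), against 57.1% of all tested genes. The median log2 fold change of the tested members was −0.12, against 0.0071 over all tested genes, and the median size without sign was 0.70, against 0.36.

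The filter on low counts bears on these numbers. It kept a gene that reached the CPM of about 10 counts in at least 3 libraries, and 8 members reached it in some libraries only, 6 of which were called. KCNJ15, KCNG1 and KCND3 reached it in all 3 libraries with sauchinone and in 2 of 3 in UVB. KCNN2 and KCNS2 reached it in 2 of 3 with sauchinone and in all 3 in UVB, and KCNIP2 in none with sauchinone and in all 3 in UVB. With no filter on low counts KCNN2, KCNJ15, KCNG1 and KCNS2 were still called (edgeR adjusted p = 6.5e-34, 1.5e-07, 6.7e-06 and 0.0033). The 20 members over the filter in all 6 libraries held 9 calls (45%), 3 higher and 6 lower, and 5 of the 20 (25%) changed at least 2-fold. The shares of all tested genes above include genes short of the filter in some libraries, so these 2 shares have no like value beside them. KCNA7 and KCNJ12 did not pass the filter. KCNA7, a voltage-gated channel gene, had 19, 7 and 9 counts with sauchinone and 8, 8 and 9 in UVB. KCNJ12, an inward rectifier gene with a near-identical copy that can share its reads, had 22, 11 and 8 counts with sauchinone and 8, 6 and 8 in UVB. The groups overlapped in both genes.

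**Figure D2:**
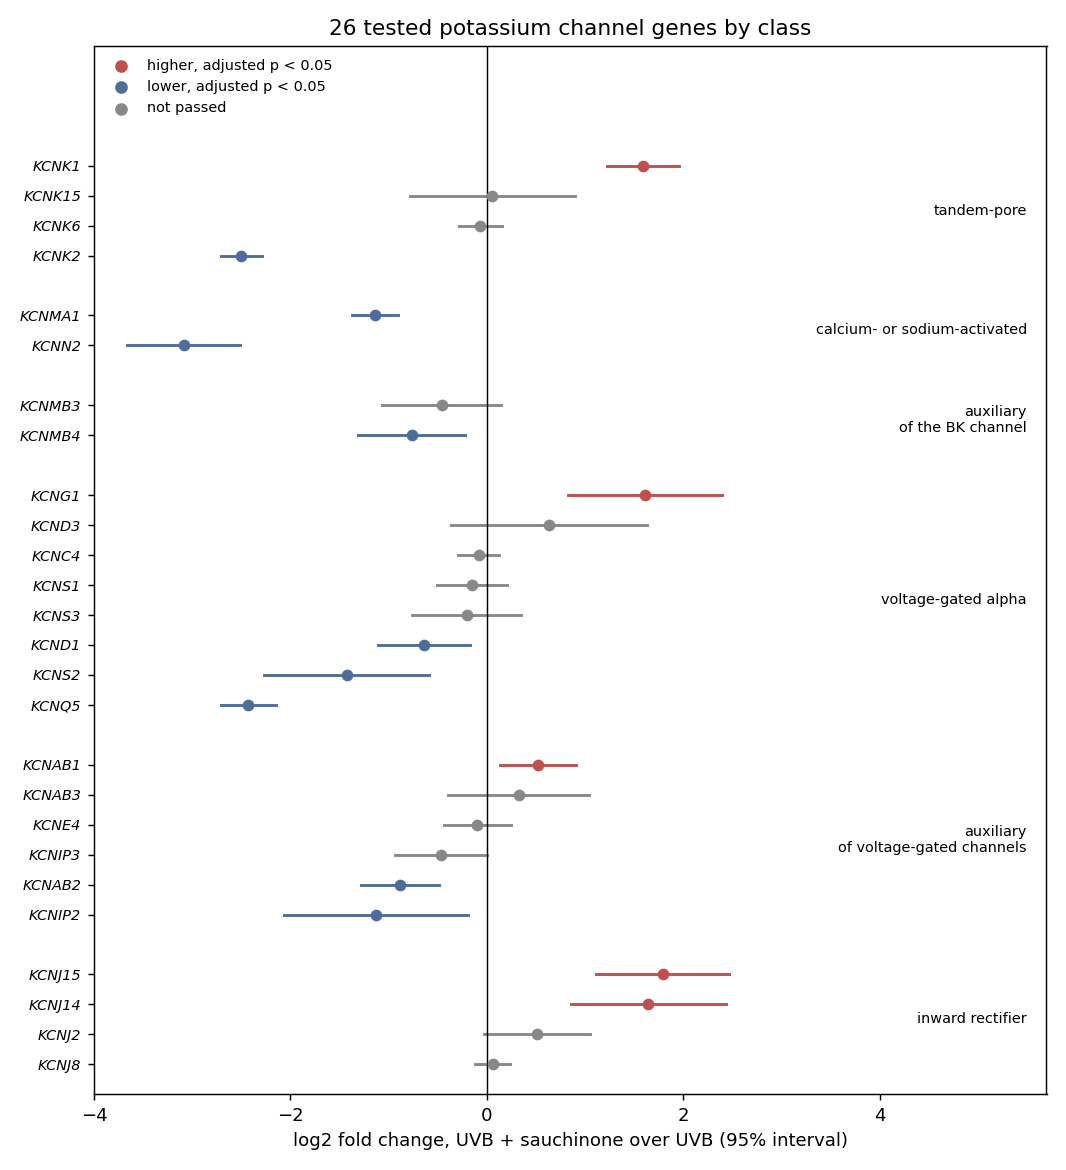
Points give the log2 fold change of UVB + sauchinone over UVB for 26 of the 28 tested members, grouped by class, and lines give the 95% interval of the fit. Red marks genes called higher, blue genes called lower and grey genes that did not pass. The low-count genes KCND3 and KCNIP2 have the widest intervals drawn, and KCNJ8, KCNC4 and KCNK6 lie near 0 with narrow ones.

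Tandem-pore channels, which carry background potassium current, held the most abundant of the members in the UVB libraries and changes in both directions. KCNK2 (ENSG00000082482, chromosome 1 at 215005775 to 215237090, GRCh38, plus strand) had 23.6, 20.7 and 28.9 CPM with sauchinone and 139, 135 and 139 CPM in UVB. Every library with sauchinone was thus far below every UVB library. Its log2 fold change was −2.50 ± 0.10 (SE, n = 3 in each group; edgeR adjusted p = 2.7e-14). KCNK1, a weakly conducting relative (ENSG00000135750, chromosome 1 at 233614106 to 233672514, plus strand), moved the other way, with 8.14, 12.6 and 10.4 CPM with sauchinone and 3.66, 3.61 and 3.09 CPM in UVB. Its groups did not overlap, and its log2 fold change was 1.59 ± 0.18 (edgeR adjusted p = 1.3e-07). KCNK6, a further relative of KCNK1, was at 21.8 ± 0.821 CPM with sauchinone and 22.8 ± 2.29 CPM in UVB (mean ± SD, n = 3), a log2 fold change of −0.06 with a 95% interval of −0.28 to 0.15. KCNK15, whose product carries no current on its own, had 10 to 22 counts per library and a log2 fold change of 0.06 with a wide interval of −0.78 to 0.90.

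RefSeq lists a pair of transcript starts for KCNK2 on GRCh38.p14, and the counts per gene do not tell which one, if either, was used. The bases just after each start were not found in the annotated transcripts of KCNK2 they were checked against. The upstream start, at 215005542, also lies before the gene as counted, which begins at 215005775. The 150 bases before each start are shown because KCNK2 carries the largest change in level among the members. None of the 3 motifs searched on both strands, TGANTCA of AP-1, TGACGTCA of the cAMP response element and TATAAA of the TATA box, occurred in the windows of 250 bases before to 50 after these starts, so no letters are in capitals. The GC content of the windows was 42.0% at the upstream start and 64.7% at the downstream start, against a median of 58.7% over all 35116 starts of the table.
KCNK2, chr1:215005392-215005541, plus strand: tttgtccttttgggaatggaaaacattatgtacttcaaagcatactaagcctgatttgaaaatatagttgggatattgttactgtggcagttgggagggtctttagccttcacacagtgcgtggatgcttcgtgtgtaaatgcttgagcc
KCNK2, chr1:215082587-215082736, plus strand: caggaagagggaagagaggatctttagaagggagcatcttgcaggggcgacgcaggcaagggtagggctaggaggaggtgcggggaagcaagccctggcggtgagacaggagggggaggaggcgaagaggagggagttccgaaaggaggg

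Both tested calcium-activated channel genes fell, where 24.9% of all tested genes were called lower. KCNN2, which encodes a small-conductance channel opened by calcium through calmodulin (ENSG00000080709, chromosome 5 at 114055926 to 114496500, plus strand), had 28, 14 and 10 counts with sauchinone and 158, 121 and 143 counts in UVB. The highest sauchinone library was far under the lowest UVB library. Its log2 fold change of −3.09 ± 0.28 was the largest in size of the 28 (8.5-fold lower; edgeR adjusted p = 5.2e-09). KCNMA1, the alpha subunit of the large-conductance BK channel (ENSG00000156113, chromosome 10 at 76869601 to 77638369, minus strand), had 10.5, 13.2 and 12.5 CPM with sauchinone and 25.6, 27.0 and 27.0 CPM in UVB. Its groups did not overlap, and its log2 fold change was −1.13 ± 0.11 (edgeR adjusted p = 2.5e-08). That call did not hold relative to genes of like span, where the value was 0.11 (edgeR adjusted p = 0.47).

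The BK beta subunits, which tune the calcium and voltage response of that channel, were low. KCNMB4 had 36, 30 and 30 counts with sauchinone and 50, 45 and 60 in UVB. The groups did not overlap, and the log2 fold change was −0.76 ± 0.26 (edgeR adjusted p = 0.019). It no longer passed when 1 of these was left out: UVB + sauchinone replicate 2 or 3, or UVB replicate 1 or 3 (edgeR adjusted p = 0.056, 0.061, 0.052 and 0.070). KCNMB3 had 21, 34 and 38 counts with sauchinone and 36, 42 and 43 in UVB, and did not pass (log2 fold change −0.46, 95% interval −1.06 to 0.15). KCNMB3 lies across PIK3CA on the opposite strand, which had 8362 counts over the 6 libraries against its own 214.

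RefSeq gives KCNMA1 a start inside the gene besides the one at its 5′ end, and AP-1 letters occur as a pair before the inner start. The 150 bases before it are shown for that reason, with both matches in capitals, which begin 134 and 122 bases before the start.
KCNMA1, chr10:77350762-77350911, minus strand: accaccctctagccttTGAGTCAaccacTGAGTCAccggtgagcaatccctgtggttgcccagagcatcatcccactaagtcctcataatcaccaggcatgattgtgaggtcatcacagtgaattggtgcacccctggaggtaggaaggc

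Among the voltage-gated alpha subunits, 1 of 10 tested genes rose, 4 fell and 5 did not pass. The share called in either direction (50%) was near that of all tested genes (49.6%, with 24.7% higher and 24.9% lower). KCNQ5, whose product carries a slow M-type current (ENSG00000185760, chromosome 6 at 72621792 to 73198853, plus strand), had 4.29, 3.63 and 3.94 CPM with sauchinone and 20.0, 22.3 and 21.5 CPM in UVB. The groups were well apart, and the log2 fold change was −2.43 ± 0.13 (5.38-fold lower; edgeR adjusted p = 2.1e-12). KCNQ5-DT, a transcript that overlaps KCNQ5 on the opposite strand and had 189 counts against 1656 of KCNQ5, fell too, by 0.96. KCND1, an A-type channel subunit, had 49, 54 and 56 counts with sauchinone and 65, 65 and 106 in UVB. It fell by 0.64 ± 0.23, and did not pass once UVB + sauchinone replicate 1 (edgeR adjusted p = 0.062) or UVB replicate 3 (0.18) was left out.

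KCNC4, a fast channel subunit, did not pass. Its mean over all libraries (1.103 FPKM) was level with that of KCNQ5 (1.10 FPKM), with KCNC4 above KCNQ5 with sauchinone and below it in UVB. It had 31.5, 25.1 and 27.3 CPM with sauchinone and 29.5, 30.1 and 29.3 CPM in UVB. The log2 fold change was −0.08 with an interval of −0.29 to 0.13. KCND3, an A-type subunit, had 20, 32 and 12 counts with sauchinone and 14, 4 and 21 in UVB. The groups overlapped, and it did not pass (log2 fold change 0.64, 95% interval −0.36 to 1.64). KCND3 overlaps DDX20 on the opposite strand, which had 7493 counts against its 103 and a log2 fold change of 0.27.

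KCNS2, KCNG1, KCNS1 and KCNS3 encode silent subunits, which form no channel alone and modify other voltage-gated subunits. KCNS2 had 10, 7 and 15 counts with sauchinone and 33, 20 and 29 in UVB, and fell by 1.43 ± 0.41 (edgeR adjusted p = 0.0055). KCNS2 lies within the extent of STK3 on the opposite strand, which had 3930 counts and a log2 fold change of −1.34.

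KCNG1 was the silent subunit that rose. It had 57, 36 and 60 counts with sauchinone and 21, 20 and 6 in UVB, so the groups did not overlap. Its log2 fold change was 1.61 ± 0.38 (edgeR adjusted p = 0.0011). KCNS1 and KCNS3 did not pass, at log2 fold changes of −0.15 (95% interval −0.51 to 0.20) and −0.20 (−0.76 to 0.35).

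Of the 6 auxiliary subunits of voltage-gated channels, 1 rose, 2 fell and 3 did not pass. The share called in either direction (50%) was again near the 49.6% of all tested genes. KCNE4, a single-pass subunit that inhibits several channels, was the highest of them, at 5.11, 6.35 and 5.57 CPM with sauchinone and 6.74, 5.84 and 5.65 CPM in UVB. Its groups overlapped (log2 fold change −0.10, 95% interval −0.43 to 0.24). The cytoplasmic beta subunits KCNAB1 and KCNAB2 were called in opposite directions. KCNAB1 had 100, 117 and 104 counts with sauchinone and 63, 72 and 77 in UVB, and rose by 0.52 ± 0.18 (edgeR adjusted p = 0.023). KCNAB2 had 70, 75 and 90 counts with sauchinone and 132, 164 and 113 in UVB, and fell by 0.88 ± 0.19 (edgeR adjusted p = 0.00053). Neither pair of groups overlapped. With UVB + sauchinone replicate 2 or UVB replicate 1 left out, KCNAB1 did not pass (edgeR adjusted p = 0.079 and 0.088). KCNAB2 overlaps NPHP4 on the opposite strand, which had 499 counts against its 644 and also fell, by 0.61. KCNAB1, with 533 counts, overlaps genes without a symbol on the opposite strand (149 counts, log2 fold change 0.56) and the same strand (93 counts, −0.40). Neither of these passed.

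KCNAB3, the third beta subunit gene, did not pass (0.32, 95% interval −0.39 to 1.04). The calcium-binding subunits KCNIP2 and KCNIP3 bind to A-type channels. KCNIP2 had 7, 8 and 7 counts with sauchinone and 15, 16 and 15 in UVB. Its groups did not overlap (log2 fold change −1.13 ± 0.45, edgeR adjusted p = 0.043), but leaving out any 1 library ended the call (edgeR adjusted p = 0.081 to 0.11), as did DESeq2 (0.097) and edgeR with no filter on low counts (0.12). KCNIP2-AS1, on the opposite strand of KCNIP2, had 29 counts over the libraries against 68 of KCNIP2 and was not tested. KCNIP3 had 99, 62 and 58 counts with sauchinone and 100, 104 and 83 in UVB, which overlap, and did not pass (−0.47, edgeR adjusted p = 0.091). With UVB + sauchinone replicate 1 left out it passed (−0.77, edgeR adjusted p = 0.0097), as it did with UVB replicate 3 left out (−0.59, 0.038).

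Among inward rectifiers, 2 of 4 tested genes rose and none was called lower at an adjusted p under 0.05 in edgeR. The share called in either direction (50%) was near that of all tested genes (49.6%, with 24.7% higher and 24.9% lower). So few genes give no direction for the class. KCNJ15 (ENSG00000157551, chromosome 21 at 38155549 to 38307357, plus strand) had 65, 55 and 53 counts with sauchinone and 22, 16 and 9 in UVB. The groups were apart, with a log2 fold change of 1.79 ± 0.33 (3.46-fold higher; edgeR adjusted p = 9.6e-05). KCNJ14 had 32, 60 and 28 counts with sauchinone and 13, 11 and 12 in UVB, and rose by 1.65 ± 0.38 (edgeR adjusted p = 0.0010), most of all in UVB + sauchinone replicate 2. It overlaps GRWD1 on the same strand, which had 4703 counts over the libraries against 156 of KCNJ14 and a log2 fold change of 0.92. KCNJ2, a strong inward rectifier that holds the resting voltage, had 51, 66 and 53 counts with sauchinone and 44, 27 and 42 in UVB, without overlap, and did not pass (0.51, 95% interval −0.03 to 1.05).

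KCNJ8 (ENSG00000121361, chromosome 12 at 21764955 to 21775600, minus strand) had 46.9, 48.4 and 51.9 CPM with sauchinone and 49.4, 47.1 and 44.8 CPM in UVB. The groups overlapped, and the 95% interval of its log2 fold change of 0.06 ran from −0.12 to 0.24. ABCC9, the sulfonylurea receptor with which KCNJ8 forms a channel, did fall. It was at 2.92, 2.86 and 3.15 FPKM with sauchinone and 5.42, 4.80 and 6.31 FPKM in UVB (log2 fold change −0.93 ± 0.09, edgeR adjusted p = 3.1e-08), and at −0.52 relative to genes of like span. ABCC9 and KCNJ8 are also known as pericyte genes. The smooth muscle and pericyte list, which holds neither, summed to 13.4 to 14.7 FPKM with sauchinone and 39.6 to 45.5 FPKM in UVB. LMOD1, RGS5, ACTG2, CSPG4 and NOTCH3 of that list fell, at log2 fold changes of −1.93, −2.58, −1.97, −0.79 and −0.70. LMOD1 alone was at 6.81 to 8.38 FPKM with sauchinone and 26.2 to 31.8 FPKM in UVB, the largest part of the sum. MYH11 did not pass at means of 0.0333 FPKM with sauchinone and 0.0200 FPKM in UVB. DES was not tested at 4 to 18 counts a library, and none of the 7 markers was at 0 in all libraries. Their part in the fall of KCNMA1, KCNK2 and ABCC9 was not tested, and in bulk RNA fewer cells of a type and less RNA per cell cannot be told apart.

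AP-1 letters stood 35 bases before the RefSeq start of KCNJ15, the gene with the largest rise. That start, at 38272508, lies inside the gene as counted, and all 150 bases before it overlap an annotated exon. The 30 bases around the letters are shown, with the match in capitals.
KCNJ15, chr21:38272462-38272491, plus strand: cttccccctgcTGAGTCAgttccccagatc

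RefSeq starts on GRCh38.p14 were found for 20 of the 30 members, 34 starts in all. TGANTCA was present in 4 of the 34 windows, in KCNAB1, KCNJ15, KCNMA1 and KCNMB3, and in 7.71% of the windows of all genes. TATAAA was present in 4, in KCNAB1, KCNJ14, KCNK1 and KCNMB3, against 11.5% of all windows. TGACGTCA was in none of the 34 and in 1.85% of all windows. Genes with the AP-1 letters included members called higher, called lower and not passed.

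Levels of different genes were compared in FPKM. With sauchinone, 6 of the 30 members had a mean of at least 1 FPKM, in the order KCNJ8 (19.8 ± 1.06, SD, n = 3), KCNK2 (5.77 ± 1.02), KCNK6 (3.58 ± 0.105), KCNK1 (2.98 ± 0.610), KCNE4 (1.53 ± 0.156) and KCNC4 (1.09 ± 0.141). KCNK6 and KCNK1 lay within their spread there. In UVB, 8 members had at least 1 FPKM, and KCNK2 (31.5 ± 0.634) stood above KCNJ8 (18.5 ± 0.985), KCNK6 (3.63 ± 0.367) and KCNQ5 (1.85 ± 0.0907). These 4 levels differed by more than the spread between libraries. KCNE4 (1.59 ± 0.163), KCNC4 (1.12 ± 0.0153), KCNN2 (1.05 ± 0.168), KCNS1 (1.04 ± 0.0751) and KCNK1 (0.963 ± 0.0907) followed in small steps, several of them within their SD. KCNK1 held place 4 with sauchinone and place 9 in UVB, and KCNQ5 held place 15 with sauchinone and place 4 in UVB. KCNMA1 has the longest exonic size of the members (39.4 kb) as counted in the table, which lowers its FPKM.

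The summed FPKM of all 95 genes was 42.0, 42.1 and 44.7 with sauchinone and 70.3, 66.7 and 66.2 in UVB. KCNK2 made up 13.4%, 11.5% and 15.3% of that sum with sauchinone and 45.6%, 46.3% and 47.9% in UVB. Without KCNK2 the sums were 36.4, 37.3 and 37.8 FPKM with sauchinone and 38.2, 35.8 and 34.5 FPKM in UVB, which overlap. KCNJ8, with nearly the same FPKM in each group, made up 45.4%, 46.0% and 47.1% of the sum with sauchinone and 27.7%, 27.5% and 26.5% in UVB. The 65 genes under the count limit added little, since the 30 members held 97.6% to 98.3% of the sum with sauchinone and 99.0% to 99.2% in UVB.

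**Figure D3:**
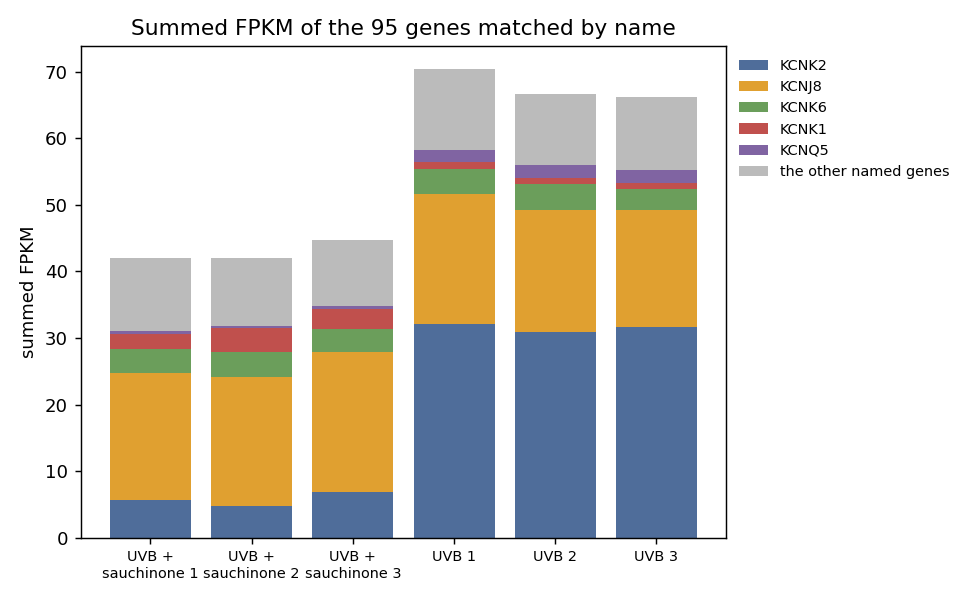
Bars give the summed FPKM of the 95 genes in each library, UVB + sauchinone left and UVB right, split by gene. The KCNK2 part is much smaller with sauchinone, while the KCNJ8 and KCNK6 parts are alike in all 6 libraries.

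Genomic span, the distance from the start to the end of a gene, moved with the fold changes in these libraries. Of the 28 tested members 12 lay in the longest of 5 span classes of equal size (88.7 to 2242 kb), where 58.5% of genes were called lower and 7.99% higher. These 12 included 6 called lower, 2 called higher and 4 not passed. The median span was 151 kb in the 10 members called lower, 58.4 kb in the 5 called higher and 21.6 kb in the 13 not passed. Across the 28 members the Spearman correlation of span with log2 fold change was −0.28, against −0.39 across all tested genes, as a description over genes that share the same 6 libraries.

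When a smooth trend of counts with span was removed from each library, values became relative to genes of like span. KCNK2, with a span of 231 kb, was then at −1.85, KCNN2 (441 kb) at −2.13 and KCNQ5 (577 kb) at −1.33, and all 3 remained called lower. KCNMA1 (769 kb) was at 0.11 and did not pass (edgeR adjusted p = 0.47). KCNAB1, which rose despite its 501 kb, was at 1.55 (edgeR adjusted p = 5.2e-07). KCNS3 (484 kb) and KCND3 (219 kb) were called higher, at 0.80 and 1.28 (edgeR adjusted p = 0.016 and 0.033). Among the members shorter than 60 kb called at least 2-fold, KCNK1, KCNG1, KCNJ14 and KCNS2 were at 1.66, 1.49, 1.47 and −1.64, close to their values above, and KCNIP2 was at −1.26.

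**Figure D4:**
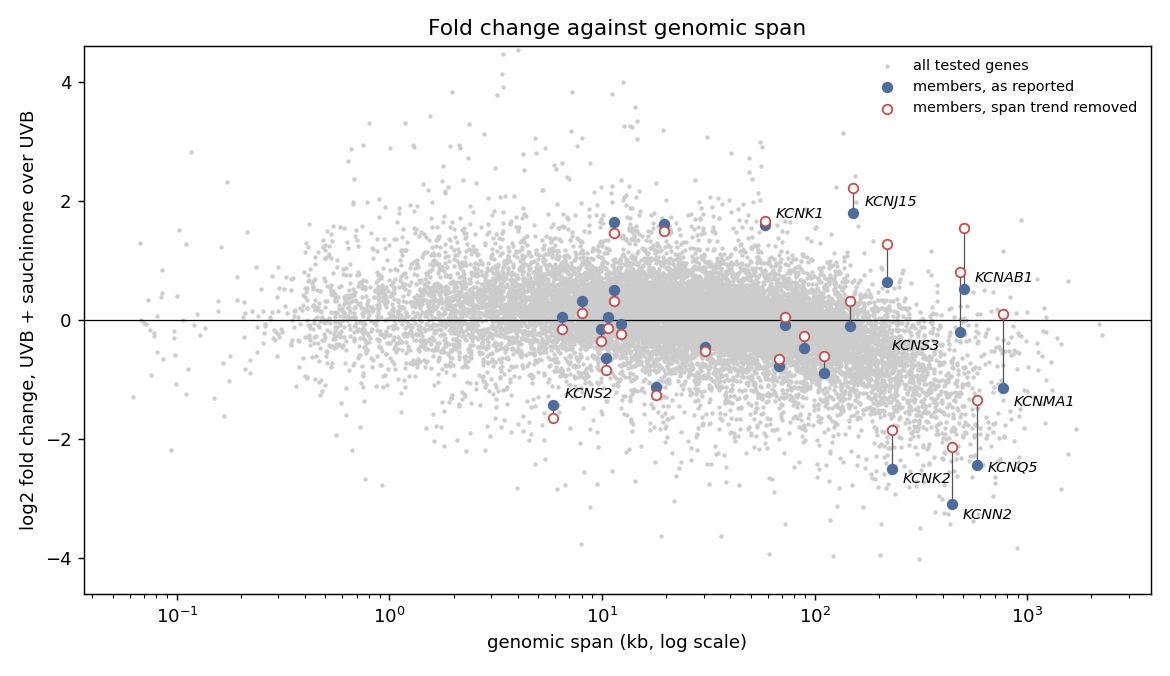
The log2 fold change of UVB + sauchinone over UVB is plotted against genomic span in kb (log scale), in grey for all tested genes (3 lie outside the range drawn). Blue points are 26 of the 28 tested members, and open circles joined to them are the same genes once the trend with span is removed. Long members move upward, with KCNMA1 ending just above 0, while KCNK2, KCNQ5 and KCNN2 stay below.

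Genes that work beside these channels were read from 4 lists. Of 18 further potassium channel subunits 8 were tested, with 1 higher, 1 lower and a median log2 fold change of 0.20. AMIGO1, an auxiliary subunit of voltage-gated channels, rose by 0.70 ± 0.14 and ABCC9 was the one that fell. Of 24 genes of the sodium pump, its regulators and the cation-chloride cotransporters 10 were tested, with 5 higher, 1 lower and a median of 0.17. ATP1B1, a pump beta subunit, was at 5.86, 6.45 and 5.60 FPKM with sauchinone and 3.06, 2.96 and 3.37 FPKM in UVB, and rose by 0.89 ± 0.09. ATP1B2, a further beta subunit, had 17, 16 and 16 counts with sauchinone and 0, 1 and 2 in UVB (edgeR adjusted p = 9.1e-05). It reached the filter on low counts only in the libraries with sauchinone, where it was higher, which limits what that p-value can show.

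Of 22 genes of voltage-gated, epithelial and acid-sensing sodium channels 10 were tested, with 5 lower, 5 not passed and a median of −0.67. SCN9A was at 3.81, 3.63 and 4.17 FPKM with sauchinone and 10.3, 10.7 and 12.6 FPKM in UVB (log2 fold change −1.58 ± 0.09). SCN3A fell by 2.71 ± 0.19. Among 27 chloride and volume-regulated anion channel genes 17 were tested, with 6 higher, 7 lower and a median of 0.12. ANO4 and ANO6, of the family of calcium-activated chloride channels and scramblases, fell by 1.91 ± 0.16 and 0.73 ± 0.08, but relative to genes of like span ANO6 was at −0.01. Over all tested genes the median was 0.0071. The share called in either direction was 25%, 60%, 50% and 76.5% of the tested genes of the 4 lists, in the order given. Of all tested genes 49.6% were called, 24.7% higher and 24.9% lower. The pump and sodium channel lists were near that share in either direction, but not by direction. Of 10 tested genes each, the pump list had 5 higher and 1 lower, and the sodium channel list 5 lower and 0 higher.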

How the data were processed

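RNA of 6 libraries, all under one batch label, was sequenced after dUTP strand-specific preparation, per the labels' protocols, which name both poly(A) selection and rRNA depletion without saying which was used. The authors deposited raw counts per gene, exonic sizes and FPKM. Recomputing FPKM from count, exonic size and library total matched all deposited values (100%, within 0.006). The build is GRCh38 per the submitters' processing notes. Aligner, counter, annotation and strand setting: not given in the sources used here, so overlapping genes are uncertain.

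Genes passing edgeR's filterByExpr (15704) were TMM-scaled and fitted with edgeR 4.0.16 in R 4.3.3. The quasi-likelihood test set UVB + sauchinone over UVB with no covariates, was two-sided, and called genes at a Benjamini-Hochberg adjusted p under 0.05. SEs derive from the F statistic, and 95% intervals use the t distribution. The fit was also tested on simulated data.

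Members and lists were chosen with earlier results of these data known. The counts cover all 30 members, of which 28 are named, and the other 2 are not reported here one by one. The rule asks for values in every library for members called at 2-fold or more and for the highest of each of 6 classes by mean FPKM, and more were given. In the other lists the 2 called genes of smallest p are named. Alternatives were DESeq2 1.42.0, limma-voom (limma 3.58.1), other scalings and filters, a replicate block, each library left out, and a local regression on span per library. Promoters are RefSeq's (GRCh38.p14).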

Additional observations from a re-analysis of the deposited data

How the results depend on the processing

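Of the 15 called members 9 kept their direction and call under every one of the 14 alternatives that tested them, namely KCNK2, KCNN2, KCNQ5, KCNS2, KCNAB2, KCNK1, KCNG1, KCNJ14 and KCNJ15 (KCNS2 was not tested with the filter at a mean of 1 CPM). With each library left out in turn the number of members called ran from 11 to 14. DESeq2 called 13 members, limma-voom 15, upper-quartile and RLE scaling 15 each, no filter 13 and a filter at a mean of 1 CPM 12. The fit with the replicate number as a block called 14 members, 5 higher and 9 lower, with KCNIP2 the member lost (edgeR adjusted p = 0.064), and 7280 of all genes against 7786. Same-numbered libraries did not deviate together (correlations of 0.0072, −0.078 and −0.031), so the numbers were not taken to pair the samples. With the span trend removed 15 members were called, 7 higher and 8 lower. Values that changed sign there were those of KCNMA1 (0.11), KCNS3 (0.80), KCNE4 (0.32), KCNJ8 (−0.13), KCNK15 (−0.16) and KCNC4 (0.046), and in the other lists 8 genes were called lower against 14. KCNK15 also changed sign without UVB + sauchinone replicate 1 (−0.07) and without UVB replicate 2 (−0.21), within a range of −0.21 to 0.34 over the libraries left out. The causes were not tested. Tested members that averaged fewer than 20 counts over all libraries have SEs above 0.38, which limits what can be seen in them.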
